A study of Mus musculus with 31 samples.

Results

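The 10 genes described here belong to the NRF2 pathway and to the enzymes that remove reactive oxygen. They are Nfe2l2, which encodes the transcription factor NRF2, its inhibitor Keap1, the NRF2 target genes Hmox1, Nqo1, Srxn1, Txnrd1, Gclc and Gclm, and the genes of catalase (Cat) and mitochondrial superoxide dismutase (Sod2). They were listed by gene name. All 10 of the 10 listed genes were found in both deposited tables by Ensembl gene ID, among 35275 gene IDs in the table of the insulin experiment and 54532 in the table of the 3SA experiment.

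RNA-seq libraries were made from whole liver or skeletal muscle of male mice 2 to 3 months old on a C57BL/6N background, and the 31 libraries fell into 8 groups. In the insulin experiment, which asked how insulin acts on liver gene expression with and without the nuclear receptor ERRα, wild-type (WT) mice and mice without ERRα in any tissue (ERRα-/-, written KO below) were fasted for 12 h overnight. They then received saline or insulin at 1 unit/kg into the peritoneum, and livers were taken 4 h after the injection. The groups WT saline, WT insulin and KO saline each had 4 livers, and KO insulin had 3 (replicates 1, 2 and 4). In the 3SA experiment, mice homozygous for ERRα3SA, a CRISPR knock-in carried in every tissue that replaces 3 phosphorylated serines of ERRα by alanine, were compared with WT littermates on a normal diet, with 4 livers and 4 muscles (gastrocnemius and soleus) per genotype. Whether a liver and a muscle that carry 1 number came from the same mouse is not stated. A library of the insulin experiment held 35871419 to 48317108 counts on genes, and a library of the 3SA experiment held 20481405 to 33412022.

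NRF2 is held in the cytoplasm by KEAP1, which hands it to a ubiquitin ligase for destruction, and a second route to destruction runs through phosphorylation of NRF2 by GSK3, a kinase that insulin signaling restrains. When oxidants or electrophiles modify KEAP1, NRF2 accumulates, enters the nucleus and switches on genes that carry antioxidant response elements, among them genes of heme breakdown, quinone reduction, glutathione synthesis and thioredoxin recycling. Liver relies on these enzymes and on catalase in its peroxisomes for detoxification, while in skeletal muscle mitochondria are among the sources of superoxide.

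Esrra, the gene of ERRα, was measured in every library to check the genotype labels. Levels within an experiment are given in CPM, counts scaled to library sizes that were adjusted by trimmed mean of M-values (TMM). In WT saline livers Esrra stood at 32.3, 51.3, 42.7 and 40.5 CPM, and in WT insulin livers at 53.7, 96.4, 56.1 and 59.0 CPM. In KO saline livers it stood at 1.63, 0.703, 1.15 and 1.04 CPM, and in KO insulin livers at 0.833, 0.576 and 0.298 CPM. Every KO liver was thus far under every WT liver, as the labels state. The 3SA mice keep the gene, and it was present in their livers at 29.4, 25.4, 21.1 and 19.2 CPM beside 27.7, 27.1, 28.2 and 29.4 CPM in WT livers. Muscle Esrra was 90.2, 82.6, 66.9 and 78.0 CPM in WT and 24.3, 133, 127 and 94.5 CPM in 3SA mice, where replicate 1 was the low one. Part of the small signal in KO livers may be shared with Trmt112, whose exons overlap those of Esrra by 73 bases on the other strand.

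Tissue labels were checked with 6 hepatocyte genes and 6 muscle fibre genes. The hepatocyte genes, led by Alb, summed to at least 58848 CPM in each liver and at most 18.6 CPM in each muscle, where Cyp2e1 made up most of the sum and Apoa1, Ttr and Cps1 had at most 3 counts in any muscle. The fibre genes, led by Myh4, summed to at least 83373 CPM in each muscle. In livers they stayed at or under 14.7 CPM except in WT insulin replicate 3, where they reached 102 CPM. All 9 marker lists for cell types were found in full in both tables. Kupffer cell and macrophage genes, led by Clec4f in liver, summed to 156 to 453 CPM in livers and 25.2 to 79.7 CPM in muscles. Other leukocyte genes summed to 3.78 to 18.4 CPM in livers and 4.24 to 25.1 CPM in muscles, with Ptprc the most abundant. Red cell genes summed to 150.0 to 449 CPM in livers and 77.4 to 156 CPM in muscles. Endothelial genes summed to 85.0 to 192 CPM in livers and 198 to 282 CPM in muscles, and stellate cell and fibroblast genes to 101 to 208.9 CPM and 967 to 2646.5 CPM. Cholangiocyte genes stayed at or under 13.7 CPM in each library. Adipocyte genes stayed at or under 5.44 CPM in livers and reached 50.8 to 111 CPM in muscles.

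Several libraries stood apart before any comparison was made. In 3SA muscle replicate 1 genes of the mitochondrial genome took 19.3% of counts, beside 9.15% to 10.8% in the other 7 muscles, and its fibre genes summed to 184920.0 CPM beside 83373 to 121310.0 CPM. That library had 16984 genes with a count, beside 19794 to 20878 in the other 7 muscles. In 3SA muscle replicate 4 the macrophage genes summed to 79.7 CPM beside 25.2 to 34.7 CPM, and its fibre genes were the lowest of the 8 muscles. In 3SA liver replicate 4 the hepatocyte genes summed to 58848 CPM beside 90834 to 110690.0 CPM in the other 7 livers of that experiment. WT insulin replicate 2 had 1.88% of counts on the mitochondrial genome, beside 3.88% to 4.17% in the other WT insulin livers, and the fewest genes with a count of that experiment (14507), and it was the lowest WT insulin liver for Srxn1, Cat, Gclc and Sod2. WT saline replicate 2 had the highest macrophage sum, 372 CPM, and red cell sum, 449 CPM, of the 4 WT saline livers, whose other 3 reached at most 258 CPM and 263 CPM.

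Between genes, levels were compared in TPM, which divides counts by exon length before scaling. Catalase RNA was the most abundant of the 10 in each of the 8 groups, at 3568 ± 305 TPM (SD) in WT saline livers and 121 ± 5.39 TPM in WT muscles. In WT saline livers the order went on with Gclc at 148 ± 43.0 TPM and Gclm at 107 ± 8.61 TPM, the subunits of the enzyme that starts glutathione synthesis, whose ranges overlapped. Srxn1 at 59.8 ± 10.1 TPM, Txnrd1 at 56.5 ± 6.90 TPM and Sod2 at 50.2 ± 5.75 TPM came next and overlapped neighbour by neighbour. Keap1 at 30.3 ± 3.79 TPM, Nfe2l2 at 29.1 ± 1.78 TPM and Hmox1 at 24.1 ± 8.30 TPM also overlapped, and Nqo1 was last at 8.24 ± 2.70 TPM, under every library of the others. Nqo1 was last in all 6 liver groups. In WT livers of the 3SA experiment the order was Cat, Gclc at 317 ± 8.88 TPM, Gclm at 102 ± 3.76 TPM, Txnrd1, Sod2, Srxn1, Nfe2l2, Keap1, Hmox1 and Nqo1, and among neighbours only Srxn1 and Nfe2l2 overlapped. In WT muscles the order after Cat was Sod2 at 89.2 ± 2.72 TPM and Nqo1 at 50.6 ± 2.72 TPM. Txnrd1 at 38.6 ± 2.31 TPM and Keap1 at 37.8 ± 1.999 TPM overlapped there, as did Nfe2l2 at 29.0 ± 2.84 TPM and Srxn1 at 27.6 ± 1.5004 TPM. Gclc at 13.3 ± 1.79 TPM stood above Gclm at 10.1 ± 0.853 TPM, and Hmox1, last at 7.99 ± 1.595 TPM, overlapped Gclm. The 3SA groups placed the same genes at the top, and in 3SA muscles Gclc was last at 10.3 ± 2.51 TPM while Srxn1 and Hmox1 had SDs near or above their means because of replicate 4.

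Because NRF2 acts through antioxidant response elements, the 250 bases before the start of each gene were read from the RefSeq promoter table (build GRCm38.p6) for the core TGACNNNGC of that element and for TNAAGGTCA, an ERR response element, on both strands. Of the 10 genes, 8 were matched, with 10 windows, and Hmox1 and Gclc were not in the table. TGACNNNGC was found in windows of 3 genes, Gclm, Txnrd1 and Nfe2l2, beside 11.5% of the 27018 genes of the table (10.2% of its 32841 windows). TNAAGGTCA was found in 0 of the 8 genes, beside 1.30% of all genes (1.14% of windows). After the sequences had been seen, the looser TGANNNNGC, which includes every TGACNNNGC, was also read. It was in windows of 5 genes, Keap1 and Srxn1 being the added ones, beside 38.7% of all genes (35.2% of windows). Genes with more windows, such as Txnrd1 with 3, have more chances of a match. Elements outside these 250 bases were not looked for, so a window without a match does not show that a gene lacks one. The windows of the 4 genes printed here hold these letters in a target that changed with insulin (Srxn1), in NRF2's own gene, and in a glutathione and a thioredoxin target that were called in no comparison among livers. Srxn1 has only the looser form. The windows of Nqo1, Sod2 and Cat hold neither form and are not printed, and Cat was also called with insulin in WT livers. Capitals mark TGANNNNGC on either strand, and each line runs from the base farthest from the start to the base next to it. The matches lie 158 to 150, 57 to 49 and 45 to 37 bases before the start of Srxn1, 240 to 232 before Nfe2l2, 134 to 126 before Gclm and 92 to 84 before the second of 3 Txnrd1 starts, and are a description only.
Srxn1 (chr2:152105274-152105523, plus strand): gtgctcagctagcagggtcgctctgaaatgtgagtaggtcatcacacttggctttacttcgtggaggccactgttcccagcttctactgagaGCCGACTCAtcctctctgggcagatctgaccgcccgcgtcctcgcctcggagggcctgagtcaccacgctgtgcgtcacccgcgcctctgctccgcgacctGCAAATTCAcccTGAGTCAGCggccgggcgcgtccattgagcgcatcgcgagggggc
Nfe2l2 (chr2:75704664-75704913, minus strand): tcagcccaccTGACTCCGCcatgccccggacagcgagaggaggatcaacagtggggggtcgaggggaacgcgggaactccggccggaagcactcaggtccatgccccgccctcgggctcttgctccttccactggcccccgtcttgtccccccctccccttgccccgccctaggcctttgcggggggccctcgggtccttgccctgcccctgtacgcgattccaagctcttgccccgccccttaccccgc
Gclm (chr3:122245307-122245556, plus strand): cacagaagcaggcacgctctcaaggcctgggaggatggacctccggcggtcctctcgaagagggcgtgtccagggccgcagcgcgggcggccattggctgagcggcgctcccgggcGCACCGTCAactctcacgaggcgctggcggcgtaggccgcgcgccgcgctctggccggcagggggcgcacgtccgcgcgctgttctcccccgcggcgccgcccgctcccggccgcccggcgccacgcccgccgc
Txnrd1 second start (chr10:82858956-82859205, plus strand): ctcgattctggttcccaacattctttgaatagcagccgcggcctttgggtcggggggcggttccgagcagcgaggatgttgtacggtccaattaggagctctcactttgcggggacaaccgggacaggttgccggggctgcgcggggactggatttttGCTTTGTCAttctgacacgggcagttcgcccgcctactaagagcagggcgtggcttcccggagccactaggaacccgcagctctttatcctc

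Insulin in WT livers was followed by higher Srxn1 and Hmox1 and lower Nfe2l2 and Cat 4 h after the injection. Srxn1 (ENSMUSG00000032802) encodes sulfiredoxin, which restores over-oxidised peroxiredoxins and is an NRF2 target. Its level was 58.8, 56.8, 69.9 and 51.4 CPM in WT saline livers and 103, 85.8, 101 and 113 CPM in WT insulin livers. Each of the 4 insulin livers lay above each of the 4 saline livers, and the log2 fold change was 0.76. Hmox1 (ENSMUSG00000005413), which encodes the heme oxygenase that opens heme, was at 11.8, 22.9, 12.9 and 12.0 CPM with saline and 29.8, 20.1, 15.97 and 25.6 CPM with insulin. Here the groups overlapped, since WT saline replicate 2 stood above 2 of the insulin livers, and the log2 fold change was 0.62. Nfe2l2 (ENSMUSG00000015839) was at 38.5, 37.5, 39.1 and 40.2 CPM with saline and 23.2, 31.8, 32.0 and 28.8 CPM with insulin. Each insulin liver was under each saline liver, with a log2 fold change of -0.42 for Nfe2l2. RNA of NRF2 itself thus fell while RNA of its targets Srxn1 and Hmox1 rose. Its other targets among the 10 genes, Nqo1 (0.09), Txnrd1 (0.11), Gclc (-0.15) and Gclm (-0.17), were not called. Cat (ENSMUSG00000027187), whose enzyme breaks down hydrogen peroxide in peroxisomes, was at 3045, 3285, 3218 and 3568 CPM with saline and 2627, 2112, 2438 and 2607 CPM with insulin. Again no insulin liver reached the saline range, and the log2 fold change was -0.42.

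A gene was called when it passed 0.05 in edgeR's quasi-likelihood test before any adjustment and differed at least 1.2-fold in either direction. By that rule 4 of the 10 genes were called with insulin in WT livers (2 higher, 2 lower), beside 17.2% of the 13463 genes tested. In edgeR's quasi-likelihood test, adjusted by Benjamini-Hochberg over those genes, Srxn1 (log2 fold change 0.76, standard error 0.13, higher in 4 of 4 insulin livers) had an adjusted p of 0.0133, and was the 1 of the 10 under 0.05, beside 3.16% of all genes. In the same edgeR test with Benjamini-Hochberg adjustment, Nfe2l2 (standard error 0.13, lower in 4 of 4) had an adjusted p of 0.113 and Cat (standard error 0.13, lower in 4 of 4) one of 0.117. Hmox1 (standard error 0.25, 4 of 4 insulin livers above the saline median) had an adjusted p of 0.229 in that edgeR test with Benjamini-Hochberg adjustment. The call of Hmox1 ended without WT saline replicate 1 (0.52), 3 (0.55) or 4 (0.53) and without WT insulin replicate 1 (0.47) or 4 (0.56), while those of the other 3 genes held without any 1 library. The uncalled genes, Keap1, Nqo1, Txnrd1, Gclc, Gclm and Sod2, had fitted log2 fold changes from -0.17 to 0.11, and the ranges of the insulin and saline livers overlapped for each. The median log2 fold change of the 10 genes was -0.05, beside 0.00 over all genes tested. Some cell type markers moved in this comparison too: 2 of 4 stellate cell genes, 1 of 4 endothelial genes and 0 of 8 macrophage genes were called lower, and 1 of 5 tested genes of other leukocytes, 1 of 2 of muscle fibres and 1 of 6 of hepatocytes were called higher. Dcn, the most abundant stellate cell gene, had a higher mean with insulin (95.9 CPM) than with saline (82.9 CPM). Stellate cell genes summed to 114, 131, 109 and 119 CPM with saline and 115, 133, 119.9 and 101 CPM with insulin, and endothelial genes to 108, 192, 153 and 159.8 CPM and 115, 85.0, 135 and 142 CPM, so both sums overlapped. None of the genes of these 2 lists was at or under 3 counts throughout, and their part in the result was not tested.

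**Figure D1:**
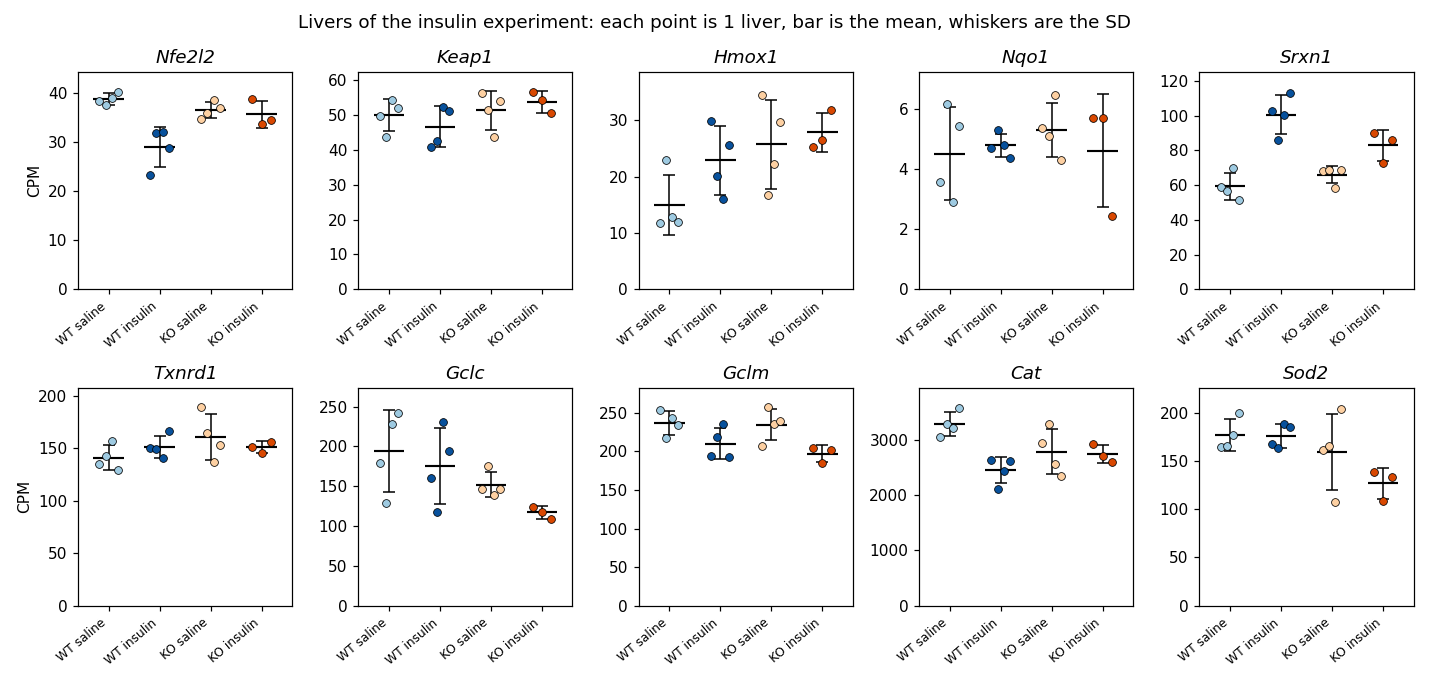
Level of each of the 10 genes in every liver of the insulin experiment, in CPM on a linear axis from 0; each point is 1 liver, the bar is the mean of the group and the whiskers its SD. The WT insulin livers lie above the WT saline livers for Srxn1 (85.8 to 113 against 51.4 to 69.9 CPM) and under them for Nfe2l2 and Cat, while the KO groups overlap for Nfe2l2 and Cat.

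In KO livers Srxn1 was called higher with insulin, with a smaller fitted log2 fold change than in WT, and Gclc was called lower. Srxn1 was at 68.3, 68.8, 58.6 and 68.4 CPM in KO saline livers and 90.2, 72.9 and 85.7 CPM in KO insulin livers. The 3 insulin livers were all above the 4 saline livers, with a log2 fold change of 0.33 (SE 0.11, p 0.0129 unadjusted). Gclc (ENSMUSG00000032350), the catalytic subunit of glutamate-cysteine ligase, was at 147, 175, 139 and 147 CPM with saline and 124, 118 and 109 CPM with insulin. All 3 insulin livers were under all 4 saline livers, with a log2 fold change of -0.38 (SE 0.11, p 0.00682 unadjusted). Its partner subunit gene Gclm was at 208, 258, 236 and 239 CPM with saline and 205, 184 and 201 CPM with insulin. These groups did not overlap either, but the fold change of 1.196 was just under the limit of 1.2. Nfe2l2, Cat and Hmox1, all called in WT, had fitted log2 fold changes of -0.04, -0.03 and 0.11 here, and their insulin and saline livers overlapped.

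Thus 2 of the 10 genes were called with insulin in KO livers (1 higher, 1 lower), beside 17.2% of 13684 genes tested, a share close to that of all genes. After Benjamini-Hochberg adjustment of edgeR's quasi-likelihood test, Gclc (log2 fold change -0.38, lower in 3 of 3 insulin livers) had an adjusted p of 0.106 and Srxn1 (0.33, higher in 3 of 3) one of 0.144. None of the 10 was under an adjusted p of 0.05 by edgeR, 3 had an unadjusted p under 0.05, and 2.91% of all genes were under the adjusted limit; DESeq2 placed 1 of the 10 under it. The call of Srxn1 ended without KO insulin replicate 1 (0.26) and with the replicate number as a block (0.27), under which Sod2 was called instead (-0.48), and that of Gclc ended, at -0.38, when all groups of the table shared 1 estimate of the spread. Gclm was called without KO saline replicate 1 (-0.31), and Sod2 (-0.34) without KO saline replicate 3 (-0.48). The median of the 10 was -0.07, beside -0.02 over all genes. Of the markers, 2 of 6 hepatocyte genes and 1 of 5 red cell genes were called higher with insulin and none lower. Hepatocyte genes, led by Alb, summed to 109510.0, 84556, 111510.0 and 84243 CPM with saline and 114960.0, 116540.0 and 108650.0 CPM with insulin, and their part in the result was not tested.

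The difference between the genotypes in the effect of insulin was tested directly, as the log2 fold change in WT minus that in KO. Srxn1 rose more in WT, by 0.43 (SE 0.17, p 0.0228 unadjusted). Nfe2l2 fell in WT and not detectably in KO, a difference of -0.39 (SE 0.16, p 0.0261 unadjusted). Cat showed the same pattern, with a difference of -0.40 (SE 0.18, p 0.0437 unadjusted). These 3 of the 10 genes were called (1 higher, 2 lower), beside 8.79% of 14670 genes. None of the 10 was under an adjusted p of 0.05 by edgeR, where 0 of all genes were, 1289 genes had an unadjusted p under 0.05, and DESeq2 gave 20 genes under the adjusted limit (0 of the 10). Gclc and Hmox1, called in 1 genotype each, had differences of 0.23 (SE 0.29, p 0.433 unadjusted) and 0.50 (SE 0.37, p 0.186 unadjusted), so no difference between the genotypes was shown for them. The call of Srxn1 ended without WT insulin replicate 4 (0.37) or KO insulin replicate 2 (0.35), and that of Nfe2l2 without KO insulin replicate 1 (-0.32). The call of Cat ended without WT saline replicate 2 (-0.40), 3 (-0.41) or 4 (-0.36), WT insulin replicate 2 (-0.34) or 3 (-0.40), KO saline replicate 3 (-0.36) or 4 (-0.33), and KO insulin replicate 1 (-0.35) or 2 (-0.41), and also without a filter on low counts (-0.40) and with a replicate block (-0.39). Hmox1 was called without WT saline replicate 2 (0.79) and Sod2 without KO saline replicate 3 (0.48). The median difference of the 10 was 0.21, beside 0.02 over all genes. Of the markers, 2 of 8 macrophage genes, 1 of 5 red cell genes and 1 of 4 stellate cell genes were called lower in WT minus KO and none higher, and their part in the result was not tested.

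Loss of ERRα was compared in livers after saline, in samples that the insulin comparisons also use. Hmox1 was the 1 gene of the 10 that was called, and it was higher in KO. Its level was 34.5, 16.7, 22.2 and 29.6 CPM in KO saline livers, beside 11.8, 22.9, 12.9 and 12.0 CPM in WT saline livers. WT saline replicate 2 lay inside the KO range and the other 3 WT livers lay under it, and the log2 fold change was 0.79. That 1 of 10 stood beside 11.3% of 13481 genes called. When edgeR's quasi-likelihood p was adjusted by Benjamini-Hochberg, Hmox1 (standard error 0.26, above the WT median in 4 of 4 KO livers) had an adjusted p of 0.261, and 0 of the 10 were under 0.05 (1 at an unadjusted p under 0.05; 0 by DESeq2). Hmox1 is also a gene of macrophages, which recycle heme, and macrophage genes summed to 173, 372, 232 and 258 CPM in WT saline and 202, 187, 189 and 204 CPM in KO saline livers, with Clec4f the most abundant and none of the 8 at or under 3 counts. Of these 8 genes 3 were called lower in KO and 0 higher. Of other markers, 1 of 5 red cell, 1 of 4 endothelial and 1 of 4 stellate cell genes were called lower and 1 of 6 hepatocyte genes higher, and the part of the markers in the result was not tested. In whole tissue, fewer cells of a type and less RNA per cell cannot be told apart. Gclc (log2 fold change -0.36, unadjusted p = 0.0700) was called without WT saline replicate 2 (-0.51) or KO saline replicate 2 (-0.43), by DESeq2, and without a filter on low counts, and Cat (-0.24) was called without KO saline replicate 2 (-0.33). The other 7 genes had fitted values from -0.15 to 0.23 with overlapping groups, and the median of the 10 was 0.01, beside 0.00 over all genes.

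After insulin, livers without ERRα had less Gclc and Sod2 than WT livers. Sod2 (ENSMUSG00000006818), the superoxide dismutase of the mitochondrial matrix, was at 167, 163, 188 and 185 CPM in WT insulin and 138, 109 and 134 CPM in KO insulin livers. Each KO liver was under each WT liver, with a log2 fold change of -0.48. Gclc was at 159.9, 118, 231 and 194 CPM in WT insulin livers, a wide range, and at 124, 118 and 109 CPM in KO insulin livers. WT insulin replicate 2 fell within the KO range and the other 3 WT livers were above it, and the log2 fold change was -0.60. These 2 of the 10 genes were called (0 higher, 2 lower), beside 9.99% of 13665 genes. In edgeR's quasi-likelihood test, adjusted by Benjamini-Hochberg, Sod2 (standard error 0.13, lower in 3 of 3 KO livers) had an adjusted p of 0.241 and Gclc (standard error 0.20, under the WT median in 3 of 3) one of 0.344. None of the 10 was under 0.05 after adjustment by edgeR, 2 had an unadjusted p under 0.05, and DESeq2 placed 0 under the adjusted limit. The call of Gclc ended without KO insulin replicate 4 (-0.53) and with a replicate block. Without WT insulin replicate 2, Nfe2l2 (0.29 with all livers, 0.34 without it) and Srxn1 (-0.29, -0.35) were called, as they were when all groups of the table were fitted together. Nfe2l2 stood at 33.7 to 38.9 CPM in KO insulin and 23.2 to 32.0 CPM in WT insulin livers, without overlap. Hmox1 (0.27) was called without WT insulin replicate 1 (0.43). The median of the 10 was -0.04, beside -0.02 over all genes. Of the markers, 2 of 5 tested muscle fibre genes were called lower in KO, and 1 of 8 macrophage, 1 of 4 endothelial and 1 of 6 hepatocyte genes higher. The fibre genes, led by Myh1, summed to 102 CPM in WT insulin replicate 3 and to at most 8.59 CPM in the other livers of both groups, and the part of the markers in the result was not tested.

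**Figure D2:**
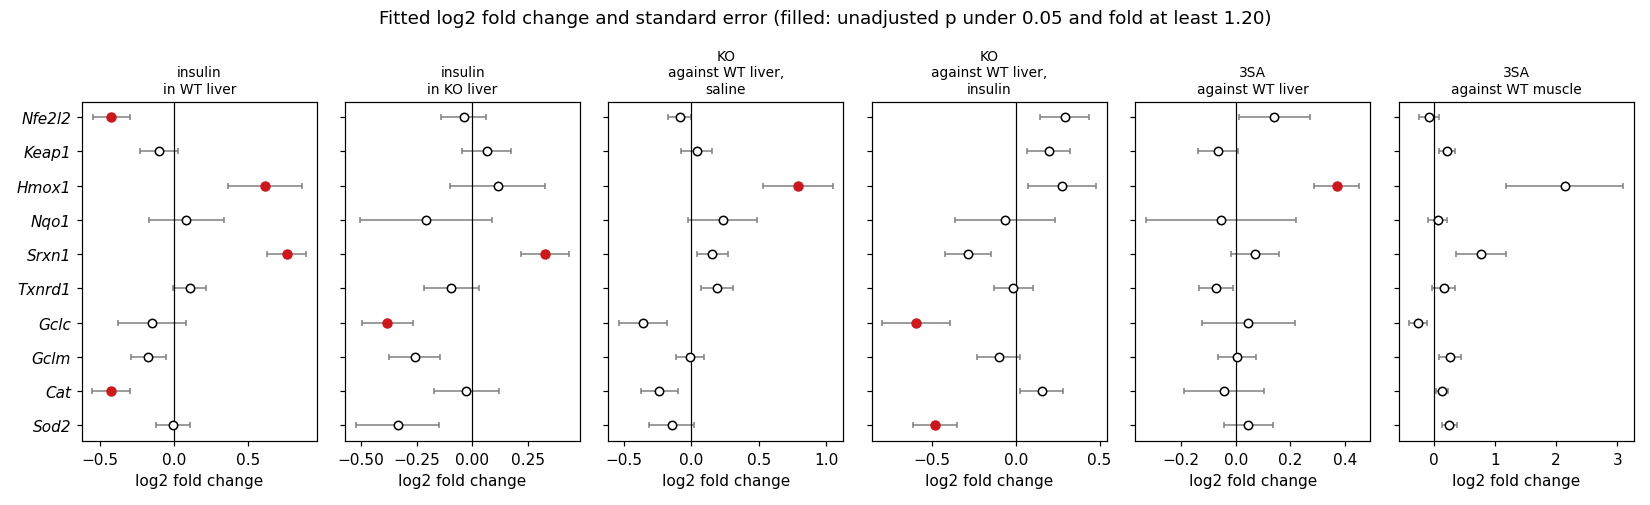
Fitted log2 fold change of the 10 genes (horizontal axis, a separate scale in each panel) with its standard error (bars) in 6 comparisons; filled points passed both limits of a call. Srxn1 stands at 0.76 for insulin in WT and 0.33 in KO livers, and the wide bar of Hmox1 in muscle reflects 1 library.

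Side by side, the insulin effect on Srxn1 was 0.76 in WT and 0.33 in KO livers, and the KO effect was 0.16 after saline and -0.29 after insulin. For Hmox1 the insulin effects were 0.62 and 0.11, and the KO effects 0.79 and 0.27. For Gclc the insulin effects were -0.15 and -0.38, and the KO effects -0.36 and -0.60. These 4 comparisons share samples, so their values are given without any measure of likeness between them. Nqo1, the quinone reductase gene often used as a marker of NRF2 activity, was low in all 15 livers of the insulin experiment, from 2.44 to 6.48 CPM, and was called in none of the comparisons among them. Keap1 and Txnrd1, the cytosolic thioredoxin reductase gene, were not called in any of them either, with Keap1 between 40.7 and 56.7 CPM and Txnrd1 between 129 and 189 CPM.

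Across the 79 other genes of the pathway, listed by role, those called with insulin in WT livers were 12 higher and 6 lower of 75 tested, with a median log2 fold change of 0.10 beside 0.00 over all genes. Over all genes 8.34% were called higher and 8.91% lower. Thioredoxin and peroxiredoxin genes had 4 higher and 0 lower of 14, glutathione genes 3 higher and 0 lower of 12, regulators of NRF2 3 higher and 3 lower of 12, and heme and iron genes 0 of 7. Metal and superoxide genes had 1 higher of 5, NADPH genes 1 lower of 7, and detoxification genes 1 higher and 2 lower of 18. By edgeR 1 of the 75, in the role of thioredoxin and peroxiredoxin genes, was under 0.05 after Benjamini-Hochberg adjustment. Of the 18 called genes, 16 were followed through every alternative, and 8 of these kept their call in all of them. Txnip, which binds and blocks thioredoxin, rose from 30.8 ± 6.28 to 60.2 ± 9.50 CPM (SD), a log2 fold change of 0.97 (SE 0.17, p 0.000114 unadjusted). Chac1, which degrades glutathione, rose by 1.87 (SE 0.46, p 0.00174 unadjusted) from under 1 CPM, Slc3a2, a subunit of amino acid exchangers that bring in cystine, by 0.70 (SE 0.21, p 0.00661 unadjusted), and Sesn1, a sestrin, by 0.79 (SE 0.24, p 0.00709 unadjusted). Sqstm1, whose product p62 binds KEAP1, had a log2 fold change of 0.33. Aox1, the aldehyde oxidase gene, and Abcc2, the exporter of conjugates into bile, had -0.68 and -0.39. Cbr1, a carbonyl reductase gene, had 0.55, and 0.34 without WT insulin replicate 2.

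In KO livers insulin was followed by higher levels of 10 and lower levels of 3 of the 76 pathway genes tested, beside 8.05% higher and 9.14% lower over all genes, with a median of 0.05 beside -0.02. Sesn1 rose by 1.71 (SE 0.21, p 8.07e-06 unadjusted), Txnip by 1.75 (SE 0.33, p 0.000306 unadjusted) and Sesn2 by 1.33 (SE 0.25, p 0.000312 unadjusted). Ugdh, which makes UDP-glucuronic acid for conjugation, rose by 0.48 (SE 0.13, p 0.00480 unadjusted). After Benjamini-Hochberg adjustment of edgeR's quasi-likelihood test, Sesn1 (log2 fold change 1.71), Txnip (1.75) and Sesn2 (1.33), each with a higher mean in the 3 insulin livers than in the 4 saline livers, had adjusted p of 0.00502, 0.0237 and 0.0240. By role the counts were 2 higher of 12 regulators, 0 of 11 glutathione genes, 4 higher of 14 thioredoxin genes, 0 of 5 metal and superoxide genes, 0 of 8 heme and iron genes, 1 lower of 7 NADPH genes, and 4 higher and 2 lower of 19 detoxification genes. The total of 13 fell to 8, 7 and 7 without KO insulin replicate 1, 2 and 4, where 2055 of 14086, 1729 of 14108 and 1998 of 14104 of all genes were called. Of the 13 called genes, 11 were followed through every alternative, and Sesn1, Txnip, Sesn2 and Ugdh kept their call in all.

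The direct test of the difference between the genotypes called 9 of 77 pathway genes (5 higher, 4 lower in WT minus KO), beside 4.75% higher and 4.04% lower over all genes, with a median of 0.06 beside 0.02. Without KO insulin replicate 2 it called 4, beside 886 of 15216 over all genes. None of the 77 was under an adjusted p of 0.05 by edgeR. Chac1 rose with insulin in WT and not detectably in KO (-0.53), a difference of 2.39 (SE 0.72, p 0.00395 unadjusted). Abcc2 fell in WT and rose in KO (0.45), a difference of -0.84 (SE 0.23, p 0.00192 unadjusted). The KO call of Abcc2 ended without KO saline replicate 3 (0.39) or 4 (0.32) and without KO insulin replicate 1 (0.45), 2 (0.41) or 4 (0.51). Bach1, a repressor that competes with NRF2 for its elements, differed by -0.77 (SE 0.25, p 0.00647 unadjusted), with -0.37 in WT and 0.39 in KO. Gpx4, the peroxidase of lipid peroxides, differed by 0.55 (SE 0.18, p 0.00820 unadjusted). These 4 of 9 kept their call under every alternative tried. Sesn1 differed by -0.93 (SE 0.34, p 0.0145 unadjusted), a call that ended without KO insulin replicate 2 (-0.69). Sesn2, Rbx1 (a subunit of the ligase that KEAP1 serves), Txn2 (mitochondrial thioredoxin) and Pgls (a pentose phosphate enzyme) each lost their call without any 1 of 5 to 8 of the 15 livers, KO insulin replicate 2 among them. Without that library Sesn2 went from -0.76 to -0.32, Rbx1 from 0.60 to 0.56, Txn2 from 0.39 to 0.33 and Pgls from 0.43 to 0.39. Sesn2 also lost its call with a replicate block (-0.68). For Slc3a2, Sqstm1 and Ugdh, called in 1 genotype each, the differences of 0.44, 0.12 and -0.26 were not called.

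**Figure D3:**
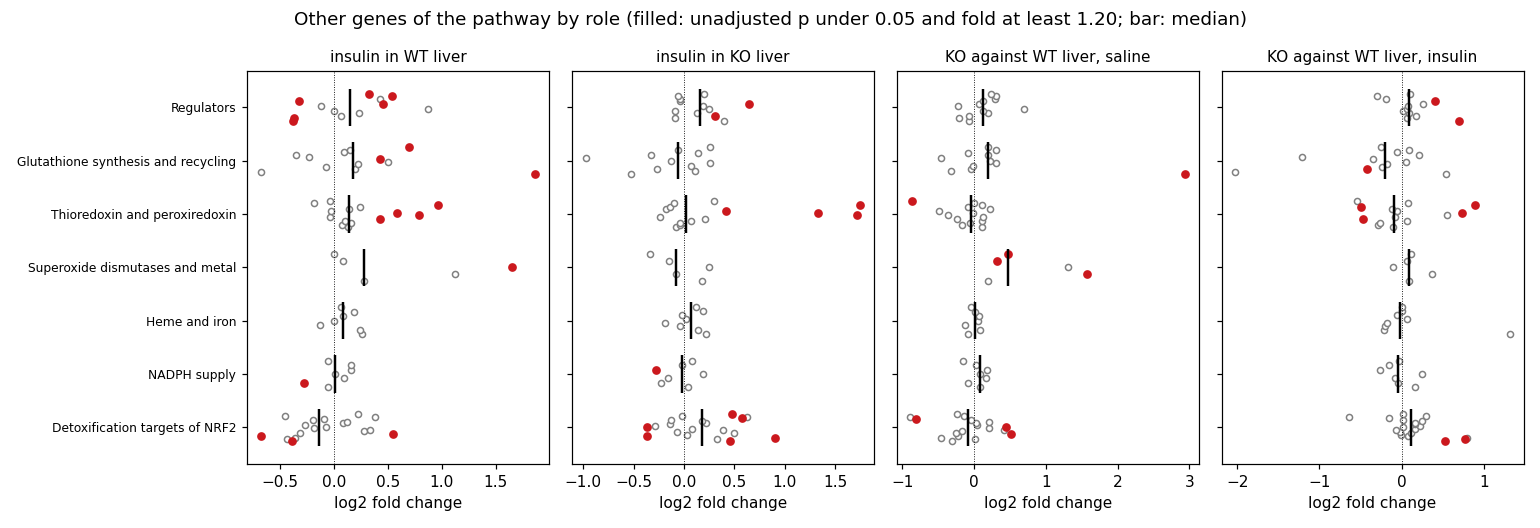
Fitted log2 fold change of each tested gene of the pathway list (points) by role in 4 liver comparisons of the insulin experiment; filled points passed both limits of a call, and the bar is the median of the role. Sesn1, Sesn2 and Txnip stand at the far right among thioredoxin genes for insulin in KO livers, up to 1.75, and Chac1 at 2.94 for KO against WT after saline.

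Between KO and WT livers after saline, 6 pathway genes were called higher and 2 lower of 74 tested, beside 5.98% higher and 5.30% lower over all genes, with a median of 0.04 beside 0.00. Without KO saline replicate 2 the total was 17, beside 1984 of 13794 over all genes. By edgeR 0 of the 74 were under an adjusted p of 0.05. Chac1 was higher in KO by 2.94 (SE 0.55, p 0.000216 unadjusted), Txnrd3, a thioredoxin reductase gene, was lower, at -0.86 (SE 0.28, p 0.0109 unadjusted), and Gstp1, a glutathione transferase gene, was lower, at -0.81 (SE 0.26, p 0.00971 unadjusted). Cbr1 was higher, at 0.51, and at 0.31 without KO saline replicate 3. These 4 of 8 kept their call under every alternative tried. Metal and superoxide genes had 3 higher of 5, detoxification genes 2 higher and 1 lower of 18, and the glutathione and thioredoxin genes 1 call each. Reads of near-identical copies, such as Gstp1 and Gstp2, Gsta1 and Gsta2, or ferritin genes and their pseudogenes, may not be told apart by counting.

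After insulin, 6 pathway genes were called higher and 3 lower in KO of 77 tested, beside 4.57% higher and 5.42% lower over all genes, with a median of 0.01 beside -0.02. That total of 9 became 17 without WT insulin replicate 1 (1498 of 13409 over all genes) and 4 without KO insulin replicate 2 (818 of 14151). With all livers, 0 of the 77 were under an adjusted p of 0.05 by edgeR. Bach1 was higher by 0.69 (SE 0.18, p 0.00286 unadjusted), Abcc2 was higher by 0.53 (SE 0.13, p 0.00223 unadjusted), Txn2 was lower, at -0.49 (SE 0.13, p 0.00410 unadjusted), and Txnip was higher at 0.89, or 0.43 without KO insulin replicate 2. These 4 of 9 kept their call under every alternative tried. By role there were 2 higher regulators of 12, 1 lower glutathione gene of 12, 2 higher and 2 lower thioredoxin genes of 14, and 2 higher detoxification genes of 19.

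Livers with ERRα3SA differed from WT littermates, by the rule of a call, in 1 of the 10 genes, Hmox1. Its level was 17.2, 17.1, 14.5 and 16.4 CPM in WT and 19.6, 21.2, 22.9 and 20.4 CPM in 3SA livers. Each 3SA liver was above each WT liver, by a small step, with a log2 fold change of 0.37. That 1 of 10 stood beside 4.88% of 13339 genes called. When edgeR's quasi-likelihood p was adjusted by Benjamini-Hochberg, Hmox1 (standard error 0.08, higher in 4 of 4 3SA livers) had an adjusted p of 0.493. By edgeR 0 of all genes were under 0.05 after adjustment, 996 genes had an unadjusted p under 0.05, and DESeq2 gave 33 after adjustment. The call ended, at 0.37, when muscles and livers shared 1 estimate of the spread. Macrophage genes summed to 323, 350.3, 355 and 347 CPM in WT and 396, 403, 341 and 453 CPM in 3SA livers, led by Clec4f, with 1 of 8 called higher and none at or under 3 counts. Of other leukocyte genes 1 was called higher and 1 lower of 5 tested (median 0.47), and 1 of 4 stellate cell genes was called higher. The part of these markers in the result was not tested. Nfe2l2 was at 63.9, 59.0, 58.9 and 56.1 CPM in WT and 68.4, 66.5, 79.6 and 47.5 CPM in 3SA livers. Replicate 4 lay under the WT range and the other 3 above it, and Nfe2l2 (log2 fold change 0.14) was called without that library (0.27).

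Replicate 4 was also the lowest 3SA liver for Nqo1, Gclc, Keap1, Srxn1, Sod2 and Cat, and hepatocyte genes were low in it. Hepatocyte genes summed to 107140.0, 92899, 106060.0 and 58848 CPM in the 3SA livers and 103800.0, 94043, 110690.0 and 90834 CPM in the WT livers, with 0 of 6 called and Alb the most abundant. Cholangiocyte genes, led by Sox9, had 2 of 3 called lower in 3SA livers (median log2 fold change -0.93) while Sox9 itself had a higher mean there (9.14 CPM beside 7.07 CPM in WT), with overlapping sums of 11.04, 9.11, 11.1 and 12.8 CPM in WT and 12.1, 8.21, 10.2 and 13.7 CPM in 3SA livers, and their part in the results was not tested. Cat was at 4223, 4283, 4453 and 4144 CPM in WT and 4562, 4362, 4532 and 3106.5 CPM in 3SA livers. Nqo1 was at 6.25, 5.82, 7.71 and 4.996 CPM in WT and 6.82, 7.31, 7.01 and 2.69 CPM in 3SA livers. Apart from replicate 4, the 3SA livers lay within or near the WT range for both. The 9 uncalled genes had fitted values from -0.07 to 0.14, with a median over the 10 of 0.03 beside 0.00 over all genes. Among them was Txnrd1 (-0.07), for which each 3SA liver (180 to 184 CPM) was under each WT liver (187 to 202 CPM). Of the pathway list, 1 gene was called higher and 3 lower of 75 tested, beside 333 higher and 318 lower of 13339 over all genes (median 0.00 beside 0.00): Mt1, a metallothionein gene, with 2.03, Chac1 with -0.86, Gpx7, an endoplasmic reticulum peroxidase gene, with -0.76, and Abcb6, a porphyrin transporter gene, with -0.64. Mt1 stood at 0.52 without 3SA liver replicate 4 and lost its call without WT liver replicate 3 (1.86), and Gpx7 lost its call without WT liver replicate 4 (-0.53). With all groups in 1 fit the calls of Chac1 (-0.86), Abcb6 (-0.64) and Mt1 (2.02) ended, at about the same log2 fold changes, and DESeq2 gave Mt1 (2.03) no p. The total of 4 became 7 without 3SA liver replicate 4, beside 892 of 13514 over all genes.

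**Figure D4:**
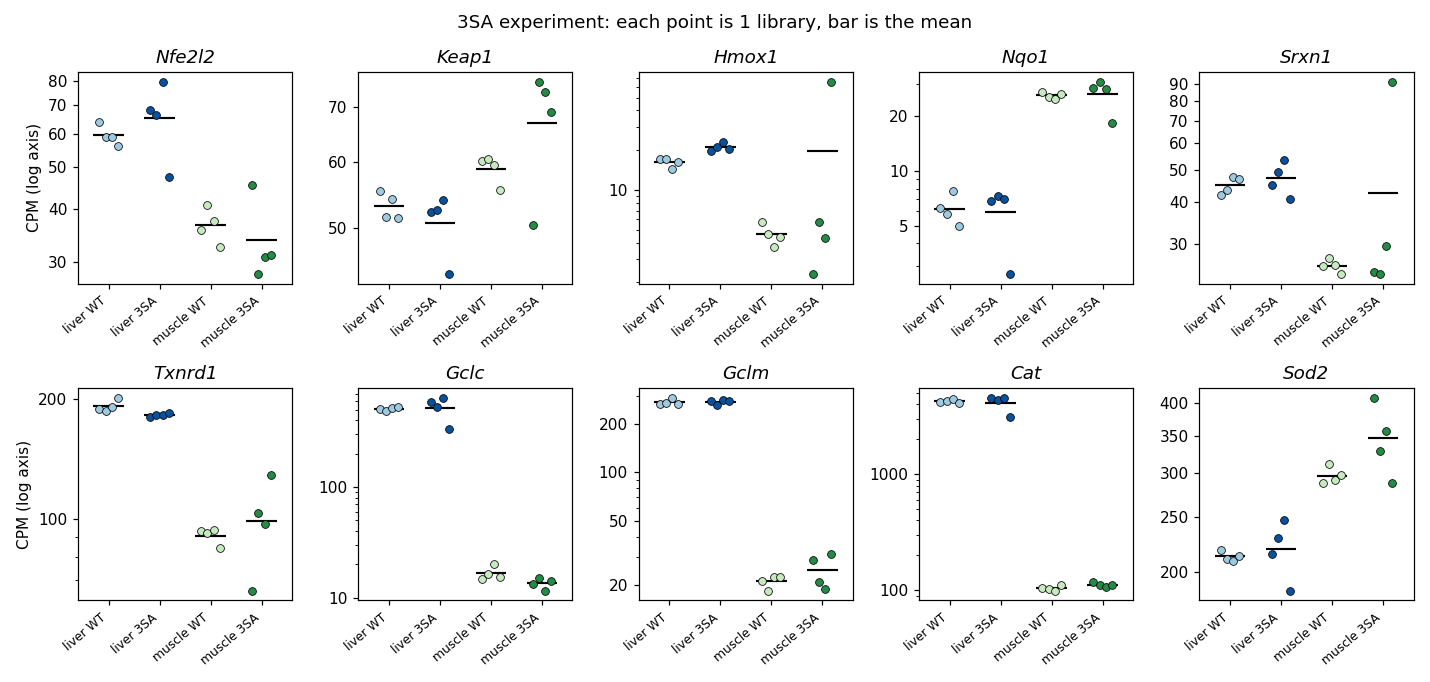
Level of each of the 10 genes in every library of the 3SA experiment, in CPM on a log axis; each point is 1 library and the bar is the mean of the group. Hmox1 and Srxn1 in 3SA muscle replicate 4 (66.2 and 91.8 CPM) lie far above the other 7 muscles, and Cat, Gclc and Gclm lie far lower in muscle than in liver.

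In 3SA muscles 0 of the 10 genes were called, beside 4.54% of 14081 genes, and 1 library set the widest gaps. Hmox1 was at 5.76, 4.66, 3.71 and 4.43 CPM in WT and 2.31, 5.71, 4.33 and 66.2 CPM in 3SA muscles. Replicate 4 was more than 10 times any other muscle, and the other 3 of the 3SA muscles lay within the WT range or, for replicate 1, under it. Srxn1 was at 25.8, 27.3, 25.9 and 24.3 CPM in WT and 24.8, 24.3, 29.6 and 91.8 CPM in 3SA muscles. Replicate 4 was again the high one, at more than 3 times any of the other 7. The fitted log2 fold changes were 2.14 (SE 0.96, p 0.0506 unadjusted) for Hmox1 and 0.76 (SE 0.41, p 0.0968 unadjusted) for Srxn1. By edgeR, 672 genes of the table had an unadjusted p under 0.05 and 0 were under 0.05 after Benjamini-Hochberg adjustment, against 39 by DESeq2; of the 10 genes 0 were under either limit by edgeR and 0 were under the adjusted one by DESeq2.

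What was called in muscle changed with the libraries kept. Hmox1 was called without 3SA muscle replicate 1 (2.53), 2 (2.45) or 3 (2.48), and stood at -0.14 without replicate 4. Srxn1 was called without replicate 1 (0.97) or 2 (0.97), and was 0.04 without replicate 4. Without replicate 1, Keap1 (0.33) and Txnrd1 (0.32) were called as well, and without replicate 4 Sod2 (0.32). Over all genes, 2506 of 14363 were called without replicate 1 and 673 of 14235 without replicate 4. With replicates 1 and 4 left out together, a choice made after the data were seen, 3 of the 10 were called: Keap1 at 0.35, Gclc at -0.31 and Nfe2l2 at -0.30. In that fit 2597 of 14586 genes were called over the whole table, with 2 libraries left in the 3SA group. Hmox1 was also called with RLE size factors, without a filter on low counts and with all groups fitted together, and Srxn1 with all groups.

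Replicate 4 differed from the other muscles in more than these genes. It was the highest of the 8 muscles for 4 of the 10 genes (Hmox1, Srxn1, Txnrd1 and Gclm) and the lowest for Nqo1 (18.5 CPM beside 24.8 to 31.1 CPM). Of the 15688 genes that passed the filter over livers and muscles together, it was the highest muscle for 19.4%. The pathway and member lists had 85 of these genes, and it was the highest for 29. Some of the 85, such as Abcc2 at 0.0639 CPM in replicate 4, fell under the filter of the muscle comparison. Replicate 1 was the highest for 3 of the 10, 19 of the 85 and 29.1% of all. Macrophage genes summed to 25.5, 25.3, 34.7 and 30.1 CPM in WT and 31.5, 25.2, 27.1 and 79.7 CPM in 3SA muscles, with Csf1r the most abundant and Clec4f at or under 3 counts throughout, and 0 of 4 tested were called. Other leukocyte genes summed to 4.53, 8.69, 6.21 and 6.49 CPM in WT and 5.57, 5.12, 4.24 and 25.1 CPM in 3SA muscles, led by Ptprc. Fibroblast genes summed to 1478, 1218, 1146 and 1438 CPM in WT and 1463, 1094, 967 and 2646.5 CPM in 3SA muscles, with Lrat at or under 3 counts. Red cell genes summed to 92.2, 119, 82.9 and 77.4 CPM in WT and 94.9, 77.4, 104 and 156 CPM in 3SA muscles, led by Hbb-bs, with 1 of 5 called higher. Of 2 tested cholangiocyte genes 1 was called higher and 1 lower. In the macrophage, leukocyte, fibroblast and red cell lists replicate 4 had the highest sum. In the fibroblast list that came from the collagen genes Col1a1 (827 CPM) and Col3a1 (1442 CPM), while Dcn, the most abundant gene of the list in WT muscles, was lower in replicate 4 (377 CPM) than in the other 7 (427 to 989.5 CPM). What part the cells that these genes mark have in its Hmox1 and Srxn1 levels was not tested.

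The other members varied less in muscle. Sod2 was at 288, 311, 291 and 297 CPM in WT and 409, 329, 357 and 289 CPM in 3SA muscles. Keap1 was at 60.2, 60.5, 59.4 and 55.5 CPM in WT and 50.3, 75.0, 72.9 and 68.9 CPM in 3SA muscles. For both genes 3 of the 3SA muscles were above the whole WT range, the exception being replicate 4 for Sod2 and replicate 1 for Keap1, and neither gene was called. Nqo1, Cat, Txnrd1, Gclm, Gclc and Nfe2l2 had fitted values from -0.27 to 0.26, and the median of the 10 was 0.18 beside 0.02. Of 71 pathway genes tested, 2 were called higher and 1 lower, beside 2.78% higher and 1.75% lower over all genes (median 0.07 beside 0.02). They were Mt1 (2.32, and -0.33 without replicate 4), Txn1, cytosolic thioredoxin (0.46, uncalled without that library at 0.31), and Ephx1, an epoxide hydrolase gene (-0.38, uncalled without it at -0.30). Those calls also ended without WT muscle replicate 3, which left 0 called (Mt1 2.29, Txn1 0.45, Ephx1 -0.35). Mt1 further lost its call without WT muscle replicate 1 (2.27), 2 (2.41) or 4 (2.34), Txn1 without WT muscle replicate 4 (0.42) or 3SA muscle replicate 2 (0.45), and Ephx1 without WT muscle replicate 1 (-0.31). All 3 calls ended with the replicate number as a block (Mt1 0.59, Txn1 0.43, Ephx1 -0.39), and that of Mt1 also with DESeq2, which gave it no p, and with a filter of at least 1 CPM. The total of 3 became 14 without 3SA muscle replicate 1, beside 2506 of 14363 over all genes, and 6 without replicate 3, beside 717 of 14300.

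Whether ERRα3SA acted differently on the 10 genes in muscle and in liver was tested as the difference of the log2 fold changes, muscle minus liver, and 0 of the 10 were called, beside 5.57% of 15688 genes. The difference for Hmox1, called in liver and not in muscle, was 1.72 (SE 0.99, p 0.10001 unadjusted), so no difference between the tissues was shown. By edgeR 881 genes had an unadjusted p under 0.05 (0 of them members) and 0 were under 0.05 after Benjamini-Hochberg adjustment, against 24 by DESeq2. Hmox1 was called without 3SA muscle replicate 1 (2.08) or 3 (2.05) and stood at -0.50 without replicate 4. Without 3SA muscle replicate 1, Nfe2l2 (-0.43), Keap1 (0.36) and Txnrd1 (0.35) were called, beside 2766 of 16019 over all genes, and without 3SA liver replicate 4 Gclc was (-0.48). Hmox1 was also called without a filter on low counts, and Nfe2l2 (-0.46) and Keap1 (0.39) were called without 3SA muscle replicates 1 and 4. The median of the 10 was 0.19, beside 0.00 over all genes. Of the markers, 2 of 5 red cell genes were called higher in muscle minus liver, and 1 of 8 macrophage, 1 of 4 endothelial and 1 of 3 adipocyte genes lower, and their part was not tested. Of 75 pathway genes 2 were called, Gpx7 with 0.80 and Txn1 with 0.49 (median 0.07 beside 0.00), both higher, beside 3.16% higher and 2.41% lower over all genes. That total became 14 without 3SA muscle replicate 1 (2766 of 16019 over all genes), 0 without WT liver replicate 4 (Gpx7 0.56, Txn1 0.48), and 1 without 3SA liver replicate 2 (Gpx7 0.77), WT muscle replicate 2 (Gpx7 0.72) or WT muscle replicate 4 (Txn1 0.49). Both also lost their call without 3SA muscle replicate 4 (Gpx7 0.63, Txn1 0.37), and Txn1 without WT liver replicate 1 (0.48), 3SA liver replicate 4 (0.41) or 3SA muscle replicate 2 (0.47), and with a replicate block (0.49).

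The widest differences among the 10 genes were between the tissues themselves. In WT littermates Cat, Gclc and Gclm were far lower in muscle than in liver. Cat was at 4223, 4283, 4453 and 4144 CPM in liver and 105, 104, 99.7 and 112 CPM in muscle. Gclc was at 506, 482, 517 and 524 CPM in liver and 14.8, 16.5, 19.97 and 15.4 CPM in muscle. Gclm was at 266, 269, 291 and 268 CPM in liver and 21.3, 18.5, 22.3 and 22.3 CPM in muscle. All muscles were under all livers for these 3 genes, with log2 fold changes of -5.31, -4.89 and -3.66. Hmox1 (-1.78), Txnrd1 (-1.05), Srxn1 (-0.77) and Nfe2l2 (-0.67) were lower in muscle as well. Nqo1 went the other way, from 6.25, 5.82, 7.71 and 4.996 CPM in liver to 27.3, 25.7, 24.8 and 26.5 CPM in muscle, as did Sod2, from 218, 211, 209 and 214 CPM to 288, 311, 291 and 297 CPM. No muscle overlapped a liver for either gene, and the log2 fold changes were 2.11 and 0.51. Keap1 differed least, at 53.1 ± 1.99 CPM (SD) in liver and 58.9 ± 2.30 CPM in muscle.

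Called between the tissues were 9 of the 10 genes (2 higher, 7 lower in muscle), beside 84.2% of 14886 genes, so a call alone says little about these genes. In edgeR's quasi-likelihood test, adjusted by Benjamini-Hochberg, all 10, Keap1 included (log2 fold change 0.18, fold 1.13, higher in 4 of 4 muscles), were under an adjusted p of 0.05, from 3.72e-15 for Cat to 0.0123 for Keap1, beside 86.5% of all genes. Standard errors ran from 0.06 for Txnrd1 to 0.13 for Hmox1. The median of the 10 was -0.91, beside 0.00 over all genes, and the median over all genes became 0.17 with DESeq2 and 0.15 without a filter on low counts. Of 75 pathway genes 21 were called higher and 46 lower in muscle, with a median of -1.0, beside 42.0% higher and 42.2% lower over all genes. Regulators of NRF2 had 8 higher and 1 lower of 12, among them Nfe2l1, a relative of NRF2, at 2.43, and Cul3, the scaffold of the ligase that KEAP1 serves, at 2.34. Glutathione genes had 6 higher and 5 lower of 11, with the intracellular peroxidase gene Gpx1 at -5.26 and the secreted peroxidase gene Gpx3 at 5.33. Thioredoxin and peroxiredoxin genes had 3 higher and 10 lower of 14, for example Prdx4 at -3.96 and Txn1 at -2.59, while Txnip was at 3.47. Metal and superoxide genes had 1 higher and 3 lower of 4, heme and iron genes 0 higher and 5 lower of 8, and NADPH genes 0 higher and 6 lower of 7, with Sod1 at -2.88, Ftl1 at -4.66 and Idh1 at -4.63. Detoxification genes had the lowest median, -4.28 (3 higher, 16 lower of 19), or -3.35 with Gsta1, Gstm3 and Abcc2, which had at most 2 counts in any WT muscle, set at the lower bound that 3 counts allow. On the log2 scale those bounds are at least 3.03, 9.30 and 12.3 units lower in muscle.

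Some of the 10 genes varied together across the livers, which is given as a description over samples that share experiments and groups. Over the 15 livers of the insulin experiment, the 4 genes whose log2 CPM was most like that of Srxn1 were Slc36a4 (Pearson r 0.924), Pi4k2b (0.916), Arl4a (0.906) and Prkar1a (0.906). Those most like Hmox1 were Puf60 (0.871), Sema6b (0.859), Adssl1 (0.852) and Chac1 (0.849), and those most like Nqo1 were Plekha4 (0.828), Nap1l3 (0.767), Dok4 (0.741) and Purg (0.739), all under 1 CPM on average. Over the 8 livers of the 3SA experiment the lists held other names. Srxn1 was nearest to Mtx2 (0.972), Ndufab1 (0.933), Stradb (0.931) and Tm7sf3 (0.929), Hmox1 to Stt3b (0.993), Slc27a2 (0.971), Chchd6 (0.970) and Slc39a9 (0.962), and Nqo1 to Cyb5a (0.984), Ugp2 (0.982), Cyp2c29 (0.976) and Coq8b (0.973). Among the members, Srxn1 and Nfe2l2 ran opposite to each other over the 15 livers of the insulin experiment (r -0.754). Those livers come from 4 groups, and in WT livers Srxn1 was higher and Nfe2l2 lower with insulin. That r includes this difference between groups, and no r within a group is given. Over the 8 livers of the 3SA experiment both genes ran together (r 0.720, and 0.577 without 3SA liver replicate 4). That liver was the lowest of the 8 for Srxn1, Nfe2l2 and Nqo1, and the lists of nearest genes over the 8 livers were not made without it. Hmox1 and Srxn1 ran together over the 8 muscles (r 0.953), where replicate 4 of the 3SA group holds both high values, and had an r of 0.0972 without it.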

How the data were processed

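Counts per gene for each library were made by the authors (STAR, mm10), and the deposited counts were used without change. The strand setting of the counting is not stated, so overlapping genes can share reads: Gclm overlaps Gm17494 by 296 exon bases and Keap1 overlaps Gm16754 by 510 on the other strand. Gene IDs were matched to symbols by GENCODE vM21.

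Each comparison was fitted with edgeR 4.0.16 in R 4.3.3 (TMM library sizes, filterByExpr, quasi-likelihood F test, two-sided), using only the groups compared, with Benjamini-Hochberg adjustment over all genes tested. The alternatives were the Wald test of DESeq2 1.42.0, RLE size factors, no filter on low counts, a filter of at least 1 CPM, all groups of a table in 1 fit, the replicate number as a block, and each library left out. Leaving out 3SA muscle replicates 1 and 4 together was added after the data were seen. Count-based steps were tested on simulated data.

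All 10 genes are named. A gene of the pathway list could be named when it was called and had 1 of the 4 smallest unadjusted p of its role, or was the most abundant of its role; genes that keep or lose a call are named from among those. For likeness the 4 genes with the highest Pearson r of log2 CPM (prior count 2) are named for Hmox1, Nqo1 and Srxn1, predicted genes left out. The members, the pathway list and the marker lists were chosen with earlier results of these data known. Nfe2l3 and Slc7a11 fell under the filter in every comparison. Within groups no 2 libraries were copies of each other: the chi-square per degree of freedom of the closest pair, 3SA muscle replicates 2 and 3, was 6.75. Pairs of libraries from different groups were not compared in this way.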

Additional observations from a re-analysis of the deposited data

Results flagged for a closer look

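In each group of 4 libraries the value farthest from the rest was compared with the spread of that group, for each of the 10 genes. Of 70 groups tested 8 held a library far from the other 3, where chance gives about 1 in 20 and 8.42% of such groups over all genes held one. The genes share libraries, so these 8 do not count separately. In 3SA muscles the share over all genes was 17.3% and in 3SA livers 8.89%. Hmox1 was high in WT saline liver replicate 2, at 22.9 CPM beside 11.8 to 12.9 CPM. Hmox1 was also high in 3SA muscle replicate 4, at 66.2 CPM beside 2.31 to 5.71 CPM, as was Srxn1 there, at 91.8 CPM beside 24.3 to 29.6 CPM. In 3SA liver replicate 4 Nqo1 was low, at 2.69 CPM beside 6.82 to 7.31 CPM, and so was Cat, at 3106.5 CPM beside 4362 to 4562 CPM. Gclm was high in WT liver replicate 3 of the 3SA experiment, at 291 CPM beside 266 to 269 CPM. Txnrd1 was low in WT muscle replicate 4, at 84.5 CPM beside 92.0 to 93.5 CPM. Srxn1 was low in KO saline liver replicate 3, at 58.6 CPM beside 68.3 to 68.8 CPM.

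Of the 10 genes, 3 passed 0.05 in edgeR's quasi-likelihood test before adjustment for a difference between genotypes in the effect of insulin, beside 8.79% of 14670 genes. For a difference between tissues in the effect of ERRα3SA 0 of the 10 did, beside 881 of 15688 genes, and chance gives about 1 in 20. The 3 were the differences between WT and KO livers in the log2 fold change with insulin: -0.39 for Nfe2l2, -0.40 for Cat and 0.43 for Srxn1. No explanation of these values was tested.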

How the results depend on the processing

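With all libraries kept, or 2 left out together, 514 of 540 values of the 10 genes kept their direction and side of the threshold, 6 lost a call, 15 gained one and 5 reversed. With 1 library left out, 764 of 850 were kept, 19 lost a call, 25 gained one and 42 reversed. Calls over all genes moved too. With 1 library out they ran from 1796 to 2511 with insulin in WT and 1729 to 2480 with insulin in KO. They ran from 1284 to 1984 for KO after saline, 818 to 1778 for KO after insulin and 886 to 1569 for genotype by insulin. For 3SA they ran from 507 to 892 in liver, 378 to 2506 in muscle and 710 to 2766 by tissue. Between tissues they ran from 12609 to 12772. These fits tested 13391 to 16044 genes. Members called were 4 with insulin in WT (3 to 4 with 1 library out), 2 with insulin in KO (1 with all groups; 1 to 3 with 1 library out), 1 for KO after saline (2 with DESeq2 and with no filter; 1 to 3), 2 for KO after insulin (4 with all groups; 1 to 4), 3 for genotype by insulin (1 to 3), 1 for 3SA liver (0 with all groups; 1 to 2), 0 for 3SA muscle (1 with RLE and with no filter, 2 with all groups, 3 without replicates 1 and 4; 0 to 4), 0 for 3SA by tissue (1 with no filter, 2 without muscle replicates 1 and 4; 0 to 4) and 9 between tissues (9 to 9). Pathway genes called with 1 library out were 13 to 18, 7 to 14, 6 to 17, 4 to 17, 4 to 12, 3 to 7, 0 to 14, 0 to 14 and 66 to 68 in that order. For 3SA liver 1 was called with all groups, and for 3SA muscle 5 with no filter and 12 without replicates 1 and 4. For 3SA by tissue 13 were called without both. Over all genes these 4 fits called, in turn, 525 of 15688, 1071 of 26464, 2597 of 14586 and 2777 of 16316.

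Log2 fold changes that reversed without 1 library ran, with insulin in WT, from -0.0796 to 0.27 for Nqo1, -0.31 to 0.000511 for Gclc and -0.0391 to 0.0588 for Sod2. With insulin in KO they ran from -0.0421 to 0.29 for Hmox1, -0.39 to 0.10 for Nqo1, -0.10 to 0.00235 for Nfe2l2, -0.00585 to 0.11 for Keap1 and -0.10 to 0.0676 for Cat. For KO after saline they ran from -0.0603 to 0.0418 for Gclm, -0.0197 to 0.11 for Keap1 and -0.29 to 0.00179 for Sod2, and for KO after insulin from -0.24 to 0.26 for Nqo1 and -0.0457 to 0.0287 for Txnrd1. For genotype by insulin they ran from -0.0195 to 0.47 for Nqo1. For 3SA liver they ran from -0.17 to 0.19 for Nqo1, -0.0655 to 0.21 for Gclc, -0.00998 to 0.0368 for Gclm, -0.0152 to 0.12 for Sod2 and -0.0932 to 0.0704 for Cat. For 3SA muscle they ran from -0.14 to 2.53 for Hmox1, -0.0228 to 0.19 for Nqo1, -0.00817 to 0.32 for Txnrd1, -0.25 to 0.00140 for Nfe2l2 and -0.33 to 2.70 for Mt1. For 3SA by tissue they ran from -0.50 to 2.08 for Hmox1, -0.14 to 0.24 for Nqo1 and -0.0320 to 0.85 for Srxn1. Without 3SA muscle replicates 1 and 4, reversed values were -0.0711 for Gclm and -0.25 for Mt1 in muscle, and -0.26 for Hmox1, -0.0958 for Gclm and -0.0106 for Srxn1 by tissue. The cause was not tested.

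With the replicate number as a block, members called were 4, 2, 1, 1, 2, 1, 0, 0 and 9 in the same order (with insulin in KO Sod2 was called in place of Srxn1), pathway genes called were 1 for 3SA muscle (not one of the 3 called when no block was fitted; over all genes 334 of 14081, beside 639) and 1 for 3SA by tissue (751 of 15688, beside 874), and Keap1 with insulin in KO reversed to -0.00677. Correlations between libraries of the same number ran from -0.18 to 0.24, and in no comparison did every library correlate best with its own number (11 of 26 did), so the numbers were not taken to pair the samples. An unadjusted p under 0.05 passes some genes by chance.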

Other observations

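Genes far higher in 3SA muscle replicate 4 than in the other 7 muscles, chosen after their values were seen, included Timp1 at 34.8 CPM (at most 0.843 CPM elsewhere), Ankrd1 at 321 CPM (at most 14.8) and Hspa1b at 151 CPM (at most 8.31). Mt1 stood at 136 CPM beside 5.62 to 9.44 CPM.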
